A study of Mus musculus with 12 samples.

Results

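The genes described here make, break down and bind hyaluronan, the long unbranched sugar polymer that fills much of the matrix around fibroblasts. They are the synthases Has1 and Has2, the hyaluronidases Hyal1 and Hyal2, the surface receptor Cd44 and the matrix proteoglycan Vcan (versican), listed in the deposited table as HAS1, HAS2, HYAL1, HYAL2, CD44 and VCAN. The 6 genes, of 16425 genes in the table, were chosen by name from the deposited CPM values (counts scaled to a common library size) of these same libraries, with results of the guide comparison already known. Their values in that comparison are therefore a description, with no test.

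The cells were wild-type (WT) mouse embryonic fibroblasts (MEFs) in culture. They had been infected with a guide (labelled sg10) aimed at the DNA element through which p53 acts on Pvt1 or with a nontargeting control guide (sgtom), and a genome-editing guide of this kind directs a nuclease to one DNA site. All 6 libraries used here came from cells kept in 0.5 µM doxorubicin, a drug that breaks DNA and activates p53, for 24 h. There were 3 control libraries and 3 targeted libraries, numbered 1 to 3 in each group, and the 6 untreated samples of the series were not analysed here, so no response to the drug itself is described. The targeted group rests on a single guide, and the sources used here do not say whether the infected cells were a pool or a clone, nor from which embryos they came. Between 50091418 and 66132317 reads per library fell in genes. The 10 fibroblast markers summed to between 37018 and 38811 CPM in every library, a sum made up mostly of Fn1, Col1a1 and Vim. Single markers of that list differed more between replicate numbers, with means of 206, 409.6 and 390.1 CPM for Thy1 and 21.7, 7.55 and 4.78 CPM for Lum in replicates 1, 2 and 3. Pvt1, the targeted RNA, was at 13.4 ± 2.61 CPM in the control libraries and 6.46 ± 1.40 CPM in the targeted ones (SD, n = 3 each). Myc, its neighbour, was at 30.4 ± 4.55 and 48.6 ± 5.16 CPM. The groups did not overlap for either gene, which was also true of 3.61% of all genes tested. The authors' edgeR fit gave a false discovery rate of 0.224 for each of Pvt1 and Myc. In the main limma test described below, without a replicate term, none of the 14440 genes tested was called, Pvt1 and Myc included. With the replicate number in that fit, 5 genes were called. The ratios of targeted to control within replicate numbers 1, 2 and 3 were 0.491, 0.507 and 0.448 for Pvt1. For Myc they were 1.52, 1.80 and 1.51. The log2 fold change of Pvt1 was −0.999 (SE 0.188, or 0.0717 with the replicate number in the fit). That of Myc was 0.67 (SE 0.127, or 0.0532).

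Hyaluronan is assembled at the plasma membrane by the HAS enzymes, which join glucuronic acid and N-acetylglucosamine from their UDP-sugars and push the growing chain out of the cell. HAS2 is the main synthase of most fibroblasts and of the early embryo. HYAL2, a membrane-anchored enzyme, cuts long chains into fragments, and HYAL1 degrades fragments further in lysosomes. CD44 is the main cell-surface receptor of the polymer, and versican, held on the chains by link proteins, forms with them the loose pericellular matrix of migrating and dividing mesenchymal cells.

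Sequence was taken from upstream of the RefSeq starts of the members, to show which common promoter motifs precede starts of genes with such different levels. RefSeq windows (build GRCm38.p6, the 250 bases before each start) were found for 5 of 6 members, and no window matched Has2. For Has1, Hyal2 and Vcan these bases lie wholly within the outer limits of the gene in GENCODE or RefSeq. They thus follow an outer annotated start and may be transcribed. The Hyal2 window, for example, begins at 107568913 and the annotated gene at 107567945. The letters CACGTG (E box), TGACGTCA (cAMP response element), TATAAA (the core promoter motif of that name, the TATA box), GGGCGG (GC box) and those of the box named for its own letters, CCAAT, were searched on both strands, and each motif was searched apart from the others, so matches could overlap. The 227 bases before Hyal1 (chr9:107576700-107576926, plus strand) are shown because they hold both a GC-box cluster and a CCAAT box. The stretch of Has1 (chr17:17855253-17855282, minus strand) is shown for its cAMP response element, with 75 bases between it and the RefSeq start. That of Vcan (chr13:89742598-89742627, minus strand) is shown for its CCAAT box, with 98 bases between it and the start. Capitals mark the motif matches, a CCAAT box on the other strand being read as ATTGG.
Hyal1: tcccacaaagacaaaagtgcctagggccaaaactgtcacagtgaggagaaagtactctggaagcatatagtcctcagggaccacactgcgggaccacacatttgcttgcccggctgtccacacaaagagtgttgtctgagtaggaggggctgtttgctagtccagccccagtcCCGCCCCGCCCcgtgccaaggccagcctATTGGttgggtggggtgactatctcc
Has1: cagacttgtccTGACGTCAgccctcctcca
Vcan: cacccccagccgATTGGtacttctcatcag

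Has1 was the only member of the 5 with TGACGTCA, which 1.55% of all 32851 windows hold. GC boxes numbered 2 in Hyal1, 1 in Hyal2 and 2 in Vcan, against at least a match in 32.7% of all windows, and the GC boxes of Hyal1 overlap in the run shown. A CCAAT box was found in Has1, Hyal1 and Vcan, against 33.9% of all windows. No window of the 5 held TATAAA or CACGTG, which 12.4% and 6.02% of all windows hold, and the window of Cd44 held none of the 5 motifs. These are matches of letters and do not show binding by any factor.

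Per kilobase of exon (GENCODE M21, build mm10), Cd44 had the highest level of the 6 members, at a mean of 69.3 CPM per kb over the 6 libraries. Hyal1 followed at 26.8 CPM per kb, Vcan at 25.2, Hyal2 at 21.2, Has2 at 13.96 and Has1 at 0.154. Cd44 stood above every other member in every library (61.3 to 81.3 CPM per kb). The neighbours Hyal1 (23.3 to 32.4) and Vcan (14.3 to 33.6) overlapped in their ranges, and the range of Hyal2 (20.5 to 21.5) lay inside that of Vcan. Has2 ranged from 3.46 to 20.4 CPM per kb, so its highest library lay just under the lowest library of Hyal2. Has1 lay below all other members in all libraries.

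**Figure D1:**
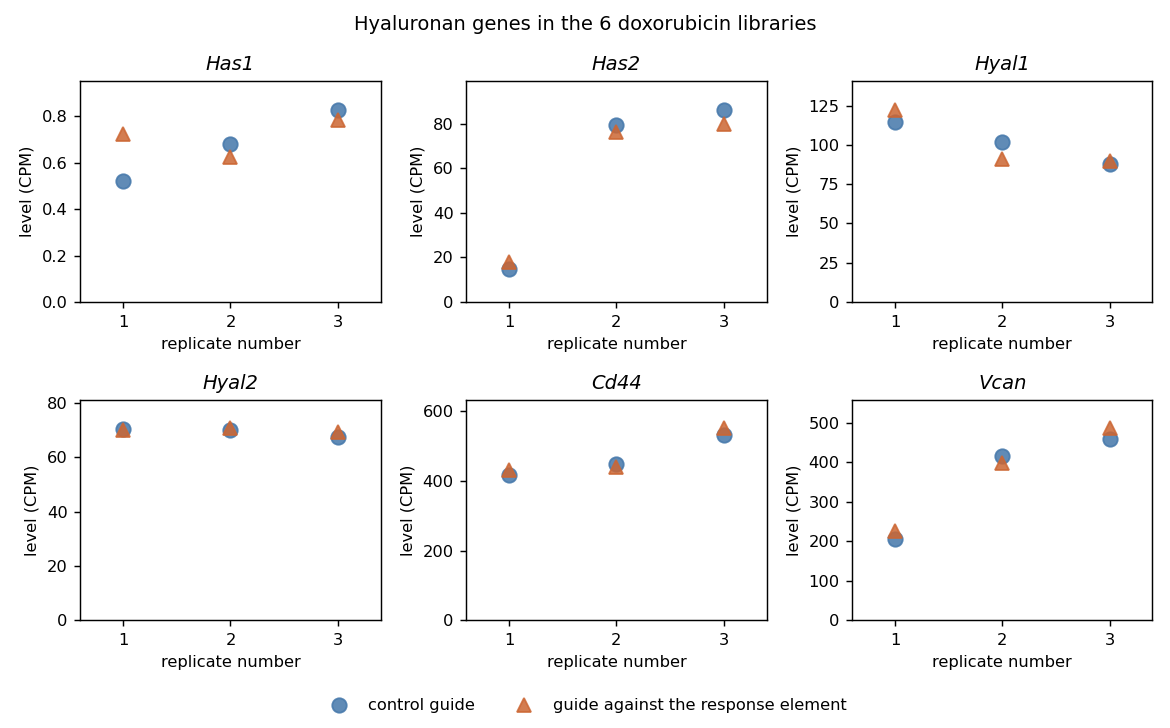
CPM of the 6 members (y axis from 0, a scale for each gene) against replicate number (x axis) in the 6 doxorubicin-treated libraries, with circles for the control guide and triangles for the guide against the response element, and no group means drawn. Has2 sits at 14.7 and 17.95 CPM in the replicate 1 libraries and between 76.3 and 86.4 CPM in the other libraries, while Hyal2 stays between 67.5 and 70.7 CPM.

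Has1 (chromosome 17, 17843323 to 17855205, minus strand) is a low-abundance synthase whose product is the least active of the family in most assays. Its level was 0.519, 0.682 and 0.828 CPM in control replicates 1, 2 and 3, and 0.725, 0.627 and 0.784 CPM in targeted replicates 1, 2 and 3. The groups overlapped, and the lowest and the highest library were both controls. These values rest on 30 to 57 reads. The exact 95% Poisson interval, which covers counting error only, was 0.350 to 0.741 CPM for the lowest library and 0.626 to 1.08 CPM for the highest, so that the intervals of the extremes overlap. The group means were 0.677 ± 0.154 and 0.712 ± 0.0793 CPM (SD, n = 3 each), a difference smaller than the SD of either group, and the log2 fold change (targeted over control, on log2(CPM + 0.5)) was 0.05 with an SE of 0.145. A guide difference smaller than this counting error was not detectable for Has1 at this depth.

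Has2 (chromosome 15, 56665627 to 56694539, minus strand), the synthase that dominates in most mesenchymal cells, varied more than any other member. It was at 14.7, 79.6 and 86.4 CPM in control replicates 1, 2 and 3, and at 17.95, 76.3 and 79.9 CPM in the targeted ones. Both libraries numbered 1 were low, whichever guide they carried, and the 4 libraries numbered 2 and 3 were high, so the guide groups overlapped. The mean of replicates 2 and 3 was 4.94 times that of replicate 1. The control and targeted replicate 1 libraries held 847 and 1188 Has2 reads, with exact 95% Poisson intervals (counting error only) of 13.7 to 15.7 and 16.9 to 19.0 CPM. Because the samples are bulk RNA, fewer Has2-expressing cells and less Has2 RNA per cell cannot be told apart. On the log2 scale the range of the replicate means was 2.32, larger than in 99.8% of the 14440 genes tested.

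Between guides, the Has2 means were 60.2 ± 39.6 CPM in control and 58.1 ± 34.8 CPM in targeted libraries (SD, n = 3 each). The ratios of targeted to control within replicate numbers 1, 2 and 3 were 1.22, 0.959 and 0.925. Thus 1 pair had the targeted library higher and the others had it lower. The log2 fold change was 0.04 with an SE of 0.854, or 0.0769 with the replicate number as a term in the fit. Its sign differs from that of the means because the ratio in replicate 1 counts as much as the others on the log scale. In the fit without the replicate number, leaving out a single replicate 1 library moved the log2 fold change to −0.78 (control left out) or 0.73 (targeted left out). Such a fit breaks a pair, so these values mostly restate the low replicate 1. With the replicate number in the fit, leaving out both libraries of replicate 1, 2 or 3 gave −0.09, 0.09 and 0.11. Has2 lies on the same chromosome as the targeted locus, with 5.29 Mb between it and Myc and 5.34 Mb between it and Pvt1. Its antisense RNA Has2os overlaps it on the plus strand, and the strand setting of the counting is not given in the sources used here, so reads of these genes may not have been told apart. Has2os was at 0.831 to 1.68 CPM, with replicate means of 0.918, 1.37 and 1.62 CPM, so that it too was lowest in replicate 1.

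Has2 made up most of the synthase RNA per kilobase. Of the sum of Has1, Has2 and Has3 per kb, Has2 took 82.2% and 86.2% in the control and targeted replicate 1 libraries and between 95.6% and 95.8% in the other libraries. Has1 took between 0.738% and 3.27%. The share of Has1 was highest in the replicate 1 libraries, where Has2 was low, although Has1 itself had its lowest replicate mean there (0.622, 0.655 and 0.806 CPM for replicates 1, 2 and 3).

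Hyal1 (chromosome 9, 107576927 to 107581710, plus strand), the lysosomal hyaluronidase, was at 115, 102 and 88.1 CPM in control replicates 1, 2 and 3, and at 122, 91.1 and 89.7 CPM in targeted ones. The 2 libraries of replicate 1 were the highest, the reverse of Has2, and the guide groups overlapped. The group means were 101.6 ± 13.4 and 101.1 ± 18.4 CPM (SD, n = 3 each), a difference far below either SD, and the log2 fold change was −0.01 (SE 0.151, or 0.0467 with the replicate number in the fit). Pair ratios were 1.07, 0.893 and 1.02. The replicate means were 119, 96.6 and 88.9 CPM, replicate 1 being 1.33 times replicate 3. Hyal1 overlaps Hyal3 and Naa80 on its own strand, and reads in the shared parts may have been left out or assigned to either gene. Hyal3 was at 0.675 to 1.88 CPM with replicate means of 0.783, 1.497 and 1.78 CPM, in the opposite order to Hyal1.

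Hyal2 (chromosome 9, 107567945 to 107572779, plus strand), the membrane-anchored hyaluronidase, ends 4.147 kb before Hyal1 begins. Its levels were 70.4, 69.9 and 67.5 CPM in the control replicates and 70.2, 70.7 and 69.4 CPM in the targeted replicates. No library stood apart, and the groups overlapped. The group means were 69.3 ± 1.55 and 70.1 ± 0.620 CPM (SD, n = 3 each), a difference below the control SD but above the targeted SD, and the log2 fold change was 0.02 (SE 0.0481). The pair ratios were 0.998, 1.01 and 1.03. The range of its replicate means was 0.04 on the log2 scale, and 2.85% of the genes tested had a smaller one. For its neighbour Hyal1 this range was 0.41.

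Ratios between single members followed from these values and do not measure hyaluronan breakdown against synthesis. Per kilobase, Hyal1 exceeded Has2 by 8.78 and 7.64 times in the control and targeted replicate 1 libraries and by 1.14 to 1.44 times in the other libraries. The ratio of Hyal1 to Hyal2 per kb was 1.42, 1.27 and 1.14 in control and 1.52, 1.12 and 1.13 in targeted replicates. Both ratios were highest in replicate 1 and overlapped between guides.

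Cd44 (chromosome 2, 102811141 to 102901665, minus strand), the hyaluronan receptor, was at 415, 449.8 and 532 CPM in control replicates 1, 2 and 3, and at 430.0, 441 and 551 CPM in targeted ones. Both replicate 3 libraries were the highest, and the guide groups overlapped. The means were 466 ± 59.7 and 474 ± 66.7 CPM (SD, n = 3 each), and the log2 fold change was 0.02 (SE 0.134, or 0.0333 with the replicate number in the fit). Pair ratios were 1.03, 0.980 and 1.04. Replicate 3 averaged 1.28 times replicate 1. The gene-level counts do not separate the standard form of CD44 from forms with variable exons.

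Vcan (chromosome 13, 89655312 to 89742509, minus strand), the large chondroitin sulfate proteoglycan that binds hyaluronan through its first globular domain, was at 207, 416 and 458 CPM in control replicates 1, 2 and 3. The targeted replicates were at 227, 398 and 485 CPM. As with Has2, both replicate 1 libraries were low and the other libraries high, and the guide groups overlapped. The mean of replicates 2 and 3 was 2.03 times that of replicate 1. The range of the replicate means, 1.12 on the log2 scale, was larger than in 96.9% of the genes tested. The group means were 360.1 ± 135 and 369.9 ± 132 CPM (SD, n = 3 each), and the log2 fold change was 0.05 (SE 0.390, or 0.0399 with the replicate number in the fit). The pair ratios were 1.10, 0.957 and 1.06. In the fit without the replicate number, the log2 fold change was −0.31 without the control replicate 1 library. It was 0.37 without the targeted replicate 1 library. As for Has2, such a fit breaks a pair. With the replicate number in the fit, leaving out both libraries of replicate 1, 2 or 3 gave 0.01, 0.11 and 0.03. Cd44 exceeded Vcan per kb by 4.29 and 4.05 times in the control and targeted replicate 1 libraries and by 2.31 to 2.48 times in the other libraries.

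**Figure D2:**
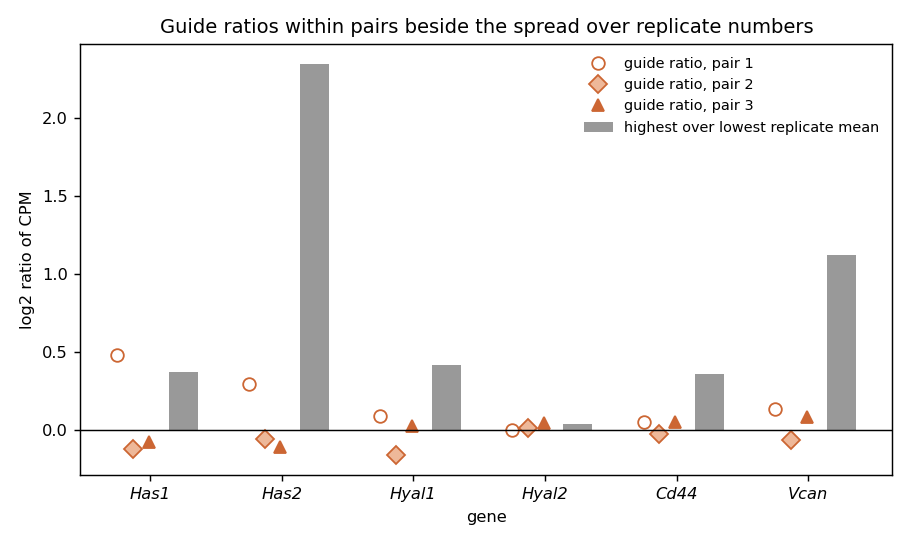
For each member, symbols give the log2 ratio of targeted to control CPM within replicate numbers 1, 2 and 3, and grey bars from 0 give the log2 ratio of the highest to the lowest replicate mean. The bar of Has2 stands for a ratio of 5.10 and that of Vcan for 2.18, while the pair ratios of Has2 run from 0.925 to 1.22 and those of Vcan from 0.957 to 1.10. For Has1 pair 1, at a ratio of 1.40, lies above the bar, at 1.29.

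Between the guides, 5 of the 6 members had a positive and 1 a negative log2 fold change, from −0.01 to 0.05 with a median of 0.03. Over all 14440 genes tested the median was −0.000399, with 7176 higher and 7264 lower values. Calls needed an adjusted p under 0.05 in limma, with Benjamini-Hochberg adjustment over all genes. In this fit 0 of 6 members were called, beside 0% of all genes (50 genes had an unadjusted p under 0.05, edgeR called 0 genes and DESeq2 called 1 gene). With the replicate number in the limma fit, 0 of 6 members were called, beside 0.0346% of all genes. None of the 6 members had guide groups that did not overlap, beside 3.61% of all genes, and 0 of 6 had the same direction in all 3 pairs, beside 28.8% of all genes. Nothing is read from these counts, since the members were picked with this contrast known. In the authors' deposited table the log2 fold changes were 0.07 for Has1, −0.05 for Has2, −0.0081 for Hyal1, 0.02 for Hyal2, 0.03 for Cd44 and 0.04 for Vcan, and the false discovery rate was 1 for all 6.

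Between replicate numbers, the same threshold in a limma F test was passed by 4 of the 6 members (Has2, Hyal1, Cd44 and Vcan), beside 48.6% of all genes. With replicate 1 left out, replicates 2 and 3 differed for 2 of 6 members, beside 21.2% of all genes. These are counts beside their background and no test of the members. The range of replicate means had a median of 0.38 on the log2 scale over the members and 0.23 over all genes tested.

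**Figure D3:**
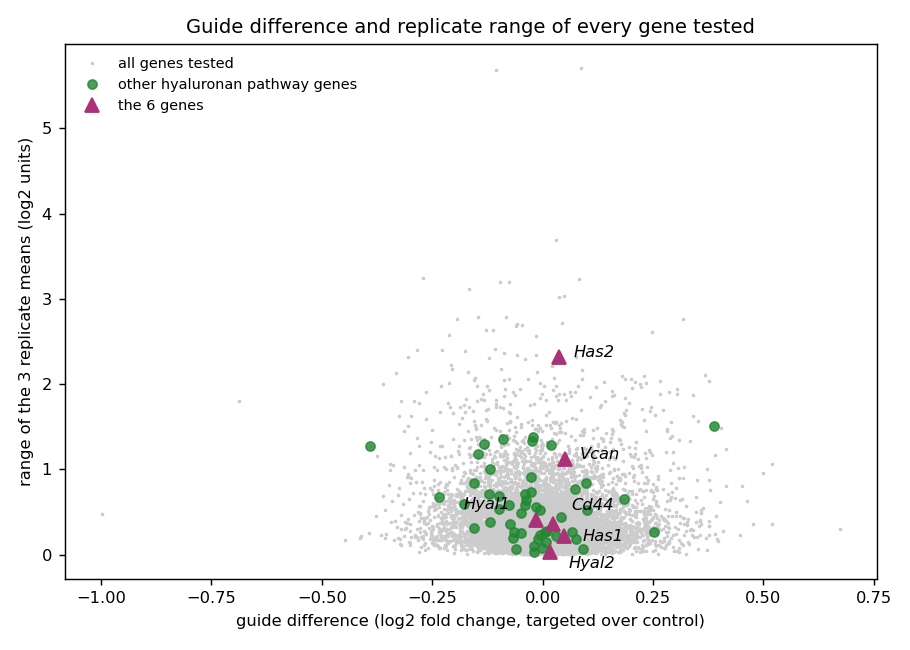
Each of the 14440 genes tested is a point, with its guide difference (log2 fold change, targeted over control) on the x axis and the range of its 3 replicate means on the y axis, both on the log2(CPM + 0.5) scale. Triangles are the 6 members and green circles the 49 other pathway genes. Has2, at a range of 2.32, and Vcan, at 1.12, lie above most genes (median 0.23) and Hyal2, at 0.04, near the bottom edge, all with guide differences between −0.01 and 0.05.

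Within the fibroblast list, Thy1 was lowest in replicate 1, as Has2 and Vcan were, and Lum was highest there, as Hyal1 was. Genes of other cell types also had unequal means over the replicate numbers, given here as a description, with no test of the marker lists. The 12 macrophage markers, all in the table, summed to 104 to 204 CPM in control and 97.4 to 318 CPM in targeted libraries. Their replicate means were 261, 101 and 123 CPM, led by Lyz2 and Cd68, so that they were high where Has2 and Vcan were low and Hyal1 was high. Of 10 epithelial and mesothelial markers, 9 were in the table, with sums of 97.1 to 120 CPM in control and 81.3 to 123 CPM in targeted libraries. Within that list Msln, a mesothelial surface protein, had replicate means of 3.97, 21.4 and 21.9 CPM, the order of Has2, while Krt19 had 92.4, 61.3 and 88.5 CPM. The 4 of 7 cartilage and muscle markers in the table summed to replicate means of 158, 110 and 96.8 CPM. The guides were unequal within replicate 1, with sums of 188 CPM in control and 128 CPM in targeted, the latter nearer to the 115 CPM of targeted replicate 2. Comp, a cartilage matrix protein, had replicate means of 37.9, 6.61 and 5.80 CPM. Col2a1, a cartilage collagen, had replicate means of 64.3, 40.4 and 41.3 CPM, the first raised by a single library at 86.6 CPM. Sox9 (20.6, 17.2 and 21.4 CPM) and Des (35.2, 45.7 and 28.3 CPM), which is a muscle gene, had other orders. Of 6 endothelial markers 4 were in the table, with sums of 49.6 to 72.9 CPM over all libraries, nearly all of it Kdr, while Pecam1 was at 0.208 to 0.605 CPM. The 12 mitosis genes had sums with replicate means of 58.8, 57.3 and 74.98 CPM, highest in replicate 3 as Cd44 was. Tpx2, the largest part of that sum, was at 26.4, 20.0 and 27.0 CPM, so nearly equal in replicates 1 and 3. Ccnb2, Aurkb and Bub1 were highest in replicate 2, and the other genes of the list in replicate 3. The part of these cells or of cell division in the members' values was not tested.

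Of a list of 64 other genes of the pathway, 53 were in the table and 49 passed the filter of at least 0.5 CPM in at least 3 libraries. Between guides none of the 49 passed the test without the replicate number (limma, adjusted p = 1 for each; 0 had an unadjusted p under 0.05), nor with it (smallest adjusted p = 0.570, for Cemip; 6 had an unadjusted p under 0.05, beside 965 of all genes). By edgeR and by DESeq2 the count was also 0. Higher values in targeted libraries were seen for 15 genes and lower values for 34, beside 7176 and 7264 of all 14440 genes tested. The median log2 fold change of the 49 was −0.03, with a range of −0.39 to 0.39. Many of these genes vary together over the same 6 libraries, and the direction of the set was not tested. The groups did not overlap for 3 of 49, namely Hapln4, C1qbp and Rdx, beside 3.61% of all genes, and 17 of 49 had the same direction in all 3 pairs, beside 28.8%. Between replicate numbers 37 of 49 passed the limma F test, or 75.5%, beside 48.6% of all genes. Replicate 1 was the lowest of the replicates in 14 of these 37, the highest in 17 and in the middle in 6. Without replicate 1, 19 of 49 passed, or 38.8%, beside 21.2% of all genes.

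Among the other genes of synthesis, Has3, the remaining synthase, was at 4.05, 4.52 and 4.81 CPM in control and 3.29, 4.12 and 4.50 CPM in targeted replicates 1, 2 and 3. The targeted library was lower in all 3 pairs, but the groups overlapped. The guide difference was −0.16 (SE 0.140, or 0.0916 with the replicate number in the fit). It did not pass (limma adjusted p = 1, or 0.766 with the replicate number). The 7 genes for the sugar nucleotide precursors were measured in full, and 6 of them differed between replicate numbers. Ugp2, which makes UDP-glucose, had replicate means of 259, 211 and 170.3 CPM (limma adjusted p = 0.00764). Ugdh, which oxidises UDP-glucose to UDP-glucuronic acid, had 211, 182 and 256 CPM (limma adjusted p = 4.97e-06), so that the precursor genes did not share an order. Uap1, which forms UDP-N-acetylglucosamine, had 42.6, 41.8 and 48.0 CPM.

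Of the breakdown list 6 of 10 genes were measured and 5 differed between replicate numbers. Hexa, a lysosomal enzyme subunit that takes part in removing sugars from hyaluronan fragments, was highest in replicate 1, as Hyal1 was. It had replicate means of 438, 320.4 and 303 CPM (limma adjusted p = 1.74e-06). Gusb, the lysosomal beta-glucuronidase, had 226, 223 and 228 CPM and did not pass (limma adjusted p = 0.771). Cemip, which is needed for hyaluronan depolymerisation in skin fibroblasts, was at 35.9, 20.9 and 30.9 CPM in control and 27.3, 17.9 and 28.9 CPM in targeted replicates. It was lower in the targeted library of every pair, yet the groups overlapped. The difference was −0.24 (SE 0.253, or 0.0587 with the replicate number in the fit). It did not pass with or without the replicate number. With it, the unadjusted limma p was 0.00192 and the limma adjusted p 0.570.

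Of the receptors 5 of 7 were tested and 4 differed between replicate numbers. Layn (layilin) had replicate means of 57.4, 47.2 and 42.1 CPM (limma adjusted p = 0.000173), and Tlr4, an innate immune receptor that hyaluronan fragments can engage, had 30.9, 13.3 and 16.8 CPM (limma adjusted p = 5.18e-07). Stab1, a scavenger receptor that macrophages also express, had 16.8, 5.27 and 7.59 CPM (limma adjusted p = 0.0254). The replicate means of Stab1 and Tlr4 thus had the order of the macrophage marker sum of 261, 101 and 123 CPM, whose part was not tested. Within replicate 1 that sum was 204 CPM in control and 318 CPM in targeted. Tlr4 went the other way there, at 34.1 and 27.8 CPM. Stab1 also had the largest positive guide difference of the 49, 0.39 (SE 0.528, or 0.214 with the replicate number in the fit). It was at 22.4 CPM in targeted and 11.1 CPM in control replicate 1 and 4.96 to 7.70 CPM in the other libraries. The difference did not pass (limma adjusted p = 1, or 0.798 with the replicate number). Hmmr, a receptor that is raised in dividing cells, was at 2.61 to 4.2 CPM and differed neither between guides nor between replicate numbers (limma adjusted p = 1 and 0.0798).

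Hyaluronan-binding matrix and link proteins were tested for 11 of 18 genes, of which 7 differed between replicate numbers. Ptx3, a pentraxin built into the hyaluronan matrix of the cumulus, had replicate means of 52.3, 66.7 and 46.2 CPM (limma adjusted p = 0.00143). Hapln4, a link protein known from brain, was at 1.14 to 1.54 CPM in control and 1.57 to 1.90 CPM in targeted libraries. C1qbp, a mostly mitochondrial protein also known as a hyaluronan-binding protein, was at 62.3 to 63.6 CPM in control and 64.7 to 71.4 CPM in targeted libraries. Neither passed the guide test (limma adjusted p = 1 for both, 0.738 for both with the replicate number), although the groups did not overlap.

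The 9 partners and sheddases of CD44 were all measured, and 6 differed between replicate numbers. Msn (moesin), which ties the CD44 tail to actin, was at 1043 ± 36.5 CPM in control and 1043 ± 25.1 CPM in targeted libraries (SD, n = 3 each) and did not pass between replicate numbers (limma adjusted p = 0.259). Rdx (radixin), of the same family, was at 116 to 121 CPM in control and 109 to 115 CPM in targeted libraries and did not pass between guides (limma adjusted p = 1). Spp1 (osteopontin), a ligand of CD44, had replicate means of 1925, 3423 and 2523 CPM (limma adjusted p = 0.0153), lowest in replicate 1.

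Of the 6 versican-cleaving proteases listed, 4 passed the filter, and all 4 differed between replicate numbers. Adamts1 had replicate means of 81.6, 50.2 and 57.4 CPM (limma adjusted p = 1.04e-06) and Adamts5 37.0, 16.6 and 14.4 CPM (limma adjusted p = 0.0244), both highest in replicate 1, where Vcan was lowest. Adamts4 had 3.95, 10.9 and 6.58 CPM (limma adjusted p = 2.82e-06) and Adamts9 6.36, 13.2 and 11.6 CPM (limma adjusted p = 0.000688), both lowest in replicate 1, so the proteases did not share an order. Adamts5 was at 47.8 CPM in control and 26.2 CPM in targeted replicate 1. Its guide difference was −0.39 (SE 0.464, or 0.176 with the replicate number in the fit). That difference did not pass (limma adjusted p = 1, or 0.758 with the replicate number). Of the 5 versican-binding matrix proteins 4 differed between replicate numbers. Tnc (tenascin-C) had replicate means of 717, 1468 and 1857 CPM (limma adjusted p = 2.26e-05) and Fbln2 (fibulin-2) 3175, 5962 and 5334 CPM (limma adjusted p = 2.75e-08). Both were lowest in replicate 1, as Vcan was. Fbln1 (fibulin-1) had 21.5, 27.0 and 18.6 CPM, and Tnr (tenascin-R), a brain protein, stayed at 0.687 to 0.997 CPM.

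**Figure D4:**
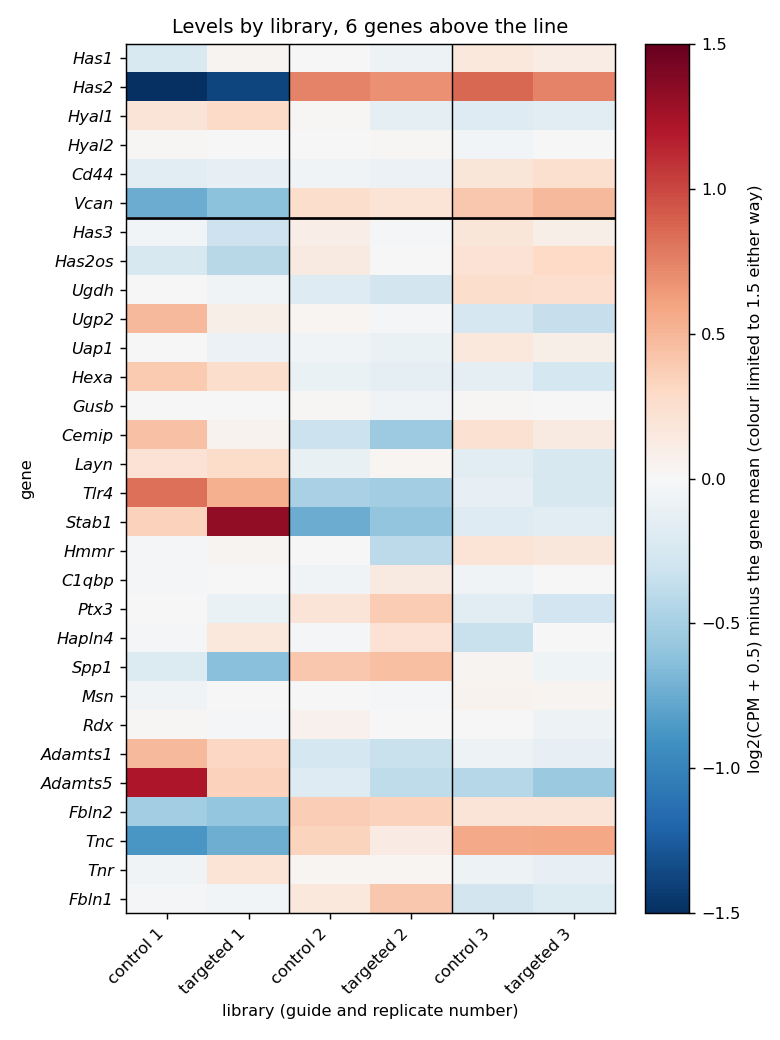
Rows are the 6 members (above the line) and 24 of the 25 other pathway genes that the naming rule gave, and columns are the libraries by replicate number. Colour gives log2(CPM + 0.5) minus the gene's mean over the 6 libraries, limited to 1.5 either way, a limit that Has2 reaches in control replicate 1. In both replicate 1 columns Has2, Vcan, Tnc and Fbln2 are low and Hyal1, Hexa, Tlr4 and Adamts5 high.

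The genes most like each member were ranked by Pearson's r of log2(CPM + 0.5) over the 6 libraries, among the 2050 genes whose mean reached 5 CPM and whose log2 range reached 0.5. For Has2 they were PVRL2 (r = 0.999), Atrnl1 and Gcnt2 (0.998 each), and for Vcan Cish (0.999) and Nfil3 (0.998). For Cd44 they were Raph1 (0.999), Zdbf2 (0.995) and Med13 (0.993), and for Hyal1 Grhl3, Hsdl1 (0.997 each) and Ahi1 (0.982). For Has1 they were Igtp (0.984), a gene whose symbol was turned into a date (0.968) and Fst (0.962), and for Hyal2 Bmyc (0.949), Reep2 (0.932) and Pm20d1 (0.927). An r above 0.9 was reached by 491 genes for Has2, 483 for Vcan, 224 for Cd44, 200 for Hyal1, 27 for Has1 and 8 for Hyal2. The 6 points share replicate numbers, and for Has2 and Vcan they form 2 clusters, so such an r mostly restates which genes differed between replicate 1 and the others. For Hyal2 the exact 95% Poisson intervals of the lowest and highest library overlap (65.5 to 69.5 and 68.5 to 72.9 CPM), as they do for Has1. The r values of Hyal2 and Has1 therefore cannot be told apart from counting error.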

How the data were processed

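Polyadenylated RNA of the 6 doxorubicin-treated samples was sequenced after a strand-specific library preparation, per the labels' protocols. The submitters' processing notes name HTSeq 0.6.1, TopHat2 2.0.14, edgeR 3.22.3 and StringTie 1.2.4 and the build mm10, without roles or the strand setting. The deposited values are CPM per gene and library, made by the authors with edgeR. The deposited table also holds the authors' log2 fold changes, p-values and false discovery rates, and 6 per-sample columns not used here. Rows naming no gene (2 rows, 8.78 to 10.2% of a library) were left out of the tests. Whole reads were recovered within 0.01 reads for 100% of values. Of 16425 symbols 15867 matched GENCODE M21, and 1 listed gene stood under an older symbol.

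The main test was limma 3.58.1 (trend, robust; R 4.3.3) on log2(CPM + 0.5) for genes that reached 0.5 CPM in 3 or more libraries, without a replicate term, with p-values adjusted by Benjamini-Hochberg at 0.05. All 6 members passed this filter. Alternatives were a replicate block, pseudocounts of 0.1 and 1, no filter or a mean of at least 5 CPM, quantile or median scaling, edgeR 4.0.16 and DESeq2 1.42.0 on the recovered reads, and leaving out libraries. The scripts were tested on simulated data drawn with no difference between replicate numbers. That run checks the code and does not show how the tests behave under the replicate spread of these libraries. Same-numbered libraries deviated together (r = 0.869, 0.739 and 0.817; against 0.203 or less where the numbers differed), and the numbers were therefore taken as pairs. The pairing comes from the data, not the labels. The series calls the replicates biological and says no more, so p-values measure the spread between these libraries. The members and lists were chosen with earlier results of these data known. Named pathway genes are, per role, the 2 with the highest mean CPM and the 2 with the smallest p between guides, without the block. Of the genes the naming rules gave, 1 pathway gene and 1 gene like Vcan are not reported here. Hyal3, Adamts4, Adamts9 and the marker genes named were chosen after their values were seen.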

Additional observations from a re-analysis of the deposited data

How the results depend on the processing

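The count of genes changed between guides was 0 of 14440 and became 5 with the replicate block, 5 by edgeR with the replicate block and 1 by DESeq2, and 0 to 160 when libraries or replicate numbers were left out. The paired fit gave 8, 160 and 9 without replicate 1, 2 or 3. For the 49 other pathway genes the count was 0 and ranged from 0 to 2 when libraries or replicate numbers were left out, the 2 being Cemip (log2 fold change −0.24, limma adjusted p = 0.0490) and Ezr (0.17, limma adjusted p = 0.0358, chosen after its values were seen) in the paired fit without replicate 2. The replicate block on all 6 libraries changed no call of these genes. The count of pathway genes that differed between replicate numbers was 37 and ranged from 19 to 36 with 1 number left out, the 19 being without replicate 1. The other alternatives kept these counts within 1.5 times.

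The members' fold changes were computed 113 times under 19 settings. The sign changed in 18 of these, over all 6 genes. Every shift from the main value stayed within the SD of the control libraries on the log2 scale. For Has2 and Vcan that SD includes the low control replicate 1 library, so this limit is wide and shows little about stability. The range was −0.06 to 0.14 for Has1, −0.78 to 0.73 for Has2, −0.16 to 0.08 for Hyal1, −0.0011 to 0.03 for Hyal2, −0.09 to 0.12 for Cd44 and −0.31 to 0.37 for Vcan. The extremes of Has2 and Vcan came from fits without the replicate number that left out a single replicate 1 library and so broke a pair. In the paired fits with a replicate number left out, Has2 ran from −0.09 to 0.11 and Vcan from 0.01 to 0.11. Of the 25 pathway genes that the naming rule gave, 19 changed sign in 48 of 470 comparisons. Depth limits Has1 most, at 30 to 57 reads.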
